A study of Homo sapiens with 10 samples.

Results

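Iron-sulfur clusters are made in mitochondria from iron and from the sulfur of cysteine, and the genes described here are the core of that assembly line. The 9 genes were the cysteine desulfurase NFS1 and its partner LYRM4, the scaffold ISCU, the co-chaperone HSCB, the glutaredoxin GLRX5, the late-acting proteins ISCA1, ISCA2 and IBA57, and the carrier NFU1. They were chosen by name from the 78894 gene identifiers of the deposited table, with symbols assigned from GENCODE release 44, and all 9 were among the 29045 genes tested.

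RNA was measured by poly(A) RNA sequencing in HEK293T cells, a human embryonic kidney line that carries the SV40 large T antigen. The cells spent 24 h in 1 of 3 media. Cysteine-free medium (0X, n = 2 libraries) and medium with 10 times the cysteine of complete medium (10X, n = 4) were each compared with complete medium (1X, n = 4). For work with altered cysteine the study's cell culture methods describe a DMEM lacking cysteine and methionine, to which methionine, GlutaMAX, non-essential amino acids and pyruvate were returned. A separate section on a starvation and release assay describes complete DMEM for unstarved cells and a medium lacking L-cystine, with dialyzed serum, for starved ones. The RNA methods refer back to the starvation treatment without naming either section, so a shared base is not established for these libraries. No group carried a genetic change beyond those of the line. The labels call the libraries biological replicates without saying whether they came from separate cultures, so the p-values measure the spread between these libraries.

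NFS1 takes sulfur from cysteine, turning cysteine into alanine, and is active only when bound by the small protein LYRM4 (also called ISD11). The sulfur and iron meet on ISCU to form a [2Fe-2S] cluster. HSCB brings loaded ISCU to the chaperone HSPA9, and the cluster passes to GLRX5. ISCA1, ISCA2 and IBA57 then act in making [4Fe-4S] clusters, and NFU1 helps deliver these to enzymes such as lipoic acid synthase.

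On GRCh38 with GENCODE release 44, NFS1 (ENSG00000244005) lies at chr20:35668052-35699355 on the minus strand, LYRM4 (ENSG00000214113) at chr6:5103629-5260950 on the minus strand and ISCU (ENSG00000136003) at chr12:108562582-108569368 on the plus strand. HSCB (ENSG00000100209) lies at chr22:28742039-28757515 on the plus strand, GLRX5 (ENSG00000182512) at chr14:95533503-95544724 on the plus strand and ISCA1 (ENSG00000135070) at chr9:86264546-86283102 on the minus strand. ISCA2 (ENSG00000165898) lies at chr14:74493756-74497106 on the plus strand, IBA57 (ENSG00000181873) at chr1:228165804-228182257 on the plus strand and NFU1 (ENSG00000169599) at chr2:69396113-69437628 on the minus strand. The values are for whole genes, summed over exons.

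The promoters of 4 members are shown because these carried the largest falls (NFS1, ISCA2 and GLRX5) and the only called rise (HSCB) under excess cysteine. Each run is 5′ to 3′ on the gene's strand, from 250 bases before to 50 bases after a RefSeq start site on GRCh38.p14, taking for HSCB, which has 3 such sites in that table, the one nearest the gene's start. The RefSeq start site of GLRX5, 95535050, lies inside the GENCODE gene, which begins at 95533503. That of ISCA1, not shown, also lies inside its gene (86282538, with the minus-strand gene beginning at 86283102). Capitals mark matches, on either strand, to CTTCCGG (bound by ETS factors), AAGATGGC (bound by YY1) or CCAAT (bound by NF-Y), letters chosen after the sequences had been seen.
NFS1, chr20:35699303-35699602, minus strand: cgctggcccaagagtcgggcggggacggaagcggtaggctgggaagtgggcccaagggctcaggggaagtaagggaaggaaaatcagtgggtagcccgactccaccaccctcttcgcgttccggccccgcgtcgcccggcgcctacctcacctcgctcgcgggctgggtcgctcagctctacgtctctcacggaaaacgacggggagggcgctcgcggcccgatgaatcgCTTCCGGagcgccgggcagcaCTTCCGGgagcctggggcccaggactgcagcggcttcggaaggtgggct
ISCA2, chr14:74493515-74493814, plus strand: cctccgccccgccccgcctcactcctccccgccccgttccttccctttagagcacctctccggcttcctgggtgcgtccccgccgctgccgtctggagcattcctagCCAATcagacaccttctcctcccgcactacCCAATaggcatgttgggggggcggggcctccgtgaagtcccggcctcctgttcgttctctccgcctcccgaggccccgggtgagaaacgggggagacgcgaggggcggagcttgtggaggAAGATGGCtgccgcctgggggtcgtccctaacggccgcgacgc
GLRX5, chr14:95534800-95535099, plus strand: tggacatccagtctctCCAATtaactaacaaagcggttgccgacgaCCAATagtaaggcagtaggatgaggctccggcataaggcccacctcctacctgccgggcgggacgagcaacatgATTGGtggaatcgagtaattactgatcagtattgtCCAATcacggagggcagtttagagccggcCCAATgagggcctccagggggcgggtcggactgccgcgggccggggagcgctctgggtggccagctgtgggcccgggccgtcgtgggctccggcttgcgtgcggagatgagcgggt
HSCB, chr22:28741789-28742088, plus strand: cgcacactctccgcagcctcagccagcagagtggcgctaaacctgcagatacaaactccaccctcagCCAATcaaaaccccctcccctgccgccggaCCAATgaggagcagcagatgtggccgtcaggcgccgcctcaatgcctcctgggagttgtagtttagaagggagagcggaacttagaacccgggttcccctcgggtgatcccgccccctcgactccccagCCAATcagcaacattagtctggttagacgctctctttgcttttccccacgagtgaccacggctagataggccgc

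The NFS1 promoter held CTTCCGG at 2 places, 20 bases before and 1 base after the start site, and no other member held it, against 10.3% of 35116 promoters of this length. CCAAT was in the promoters of GLRX5 (5 matches), HSCB (3 matches), ISCA2 (2 matches) and ISCA1, and in 34.6% of all promoters. AAGATGGC was in those of ISCU, ISCA2 and IBA57 and in 2.89% of all promoters. A match is a description of these letters. CCAAT stood before HSCB, called higher at 10X, before GLRX5 and ISCA2, called lower, and before ISCA1, not called there. Binding to any of these letters was not tested. The letters TGATGNAA, bound by ATF4, which is active in amino acid starvation, were found in 1 member, LYRM4, 204 bases before the start site, and in 3.62% of all promoters. TGACGTCA (bound by CREB) was found in 1 member, ISCU, and in 1.85% of all promoters, and TGACNNNGC (bound by NRF2) likewise in 1 member, ISCU, and in 13.3%.

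The libraries held 34836014 to 61654861 reads, recovered from the normalized counts, and each member had 420 to 3110 reads in each library. The 6 markers of HEK293T cells were at 10 or more in every library, with a summed level of 51630 to 52053 in 0X, 47421 to 54712 in 1X and 56402 to 59616 in 10X. Single markers moved within that sum: PAX2 was higher in 0X (1.26, adjusted p = 5.06e-04 by limma, from 133 to 318), NEFM lower in 0X (-0.29), and at 10X INA (0.65) and VIM (0.31) were higher and NEFL (-0.35) lower. No marker of leukocytes, hepatocytes, endothelium or keratinocytes was above 21.0. Of the 2 erythroid markers, HBB was at 0 and HBA1 reached 133. Transcripts of mitochondrial DNA made up 4.51% to 5.71% of reads in 0X and 1X but 0.117% to 0.146% in 10X. With libraries rescaled without them, the same number of members, 7, was called at 10X, which bears on the scaling only. Whether the lower share of these transcripts had a part in the changes of the members was not tested. In these bulk samples a lower value cannot be told apart between fewer cells with the RNA and less RNA per cell.

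Members were tested with limma on log2(normalized count + 1), with Benjamini-Hochberg adjustment over all 29045 genes, and a call needed an adjusted p no higher than 0.01. Under excess cysteine, 7 of the 9 members were called, 6 lower and 1 higher. Over all genes tested, 46.0% were called, 23.1% higher and 22.9% lower, so a called member was no rarity in itself. Shares over all genes include genes at low counts, whereas each member had at least 420 reads in each library. The split over all genes moved with the scaling, from 6721 higher and 6651 lower to 8409 higher and 5197 lower with equal library totals. Their median log2 fold change was -0.40, against 0.01 over all genes. Without cysteine, 3 of the 9 were called, all lower, against 15.9% of all genes called, 7.39% higher and 8.51% lower. That count went to 0 without 0X replicate 2, and to 1 without 0X replicate 1, 1X replicate 1 or 1X replicate 2, with no filter on low values, or with equal library totals. Here the median was -0.20, against 0.00 over all genes. The larger direction over all genes turned at 0X, from 2145 higher and 2473 lower to 2407 higher and 2192 lower with equal library totals. Each comparison's values are described below by the step of the pathway.

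**Figure D1:**
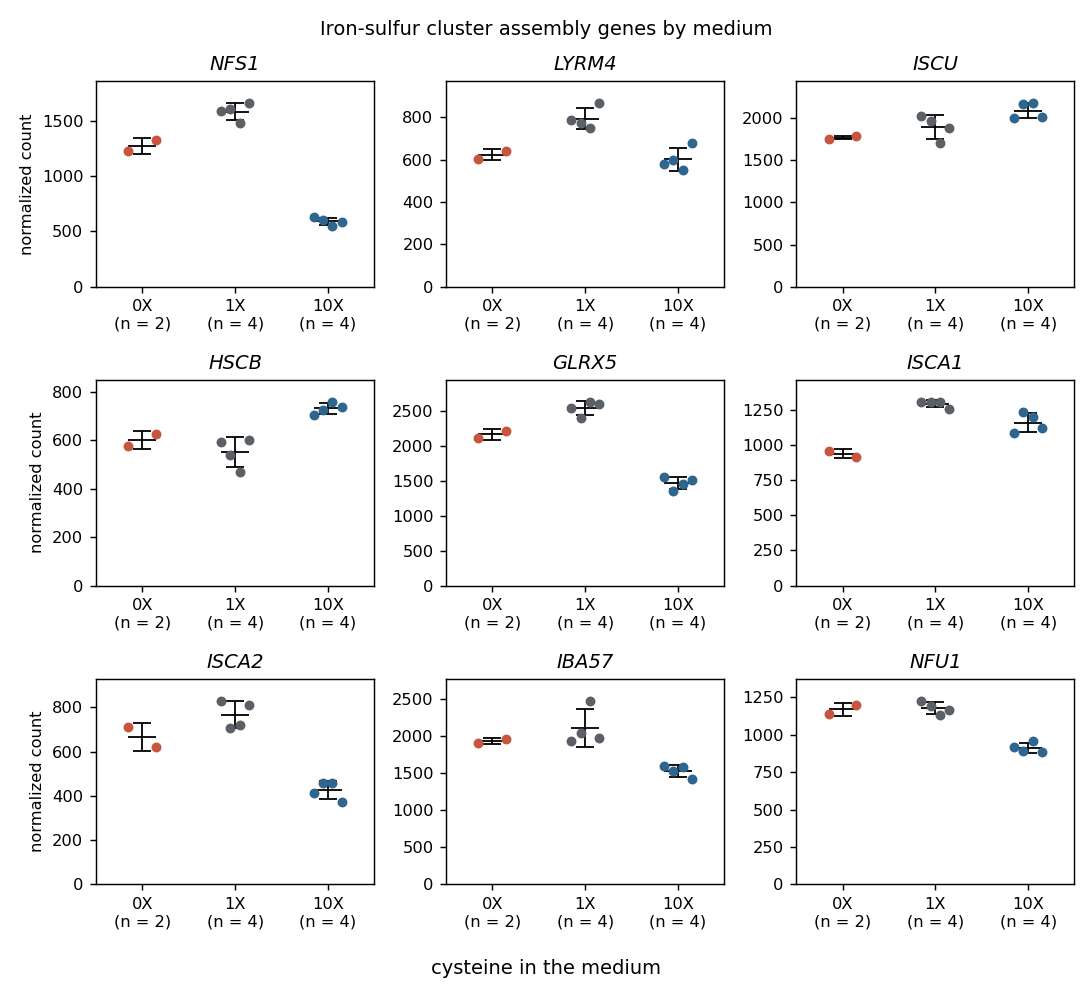
Normalized counts (y axes, from 0) of the 9 members in each library of the 0X (n = 2), 1X (n = 4) and 10X (n = 4) media; points are libraries and the black marks are the group mean ± SD. NFS1 shows the deepest drop at 10X, from a mean of 1581 to 590.2, and HSCB is the member whose 10X libraries all lie above the rest.

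NFS1 was the member that moved most. Its normalized counts were 1222 and 1324 in 0X, 1588, 1602, 1474 and 1658 in 1X, and 628, 599.7, 546 and 586 in 10X. The 3 media did not overlap, with the 10X libraries lowest and the 0X libraries between. From 1X to 10X the mean fell from 1581 ± 77.2 (SD, n = 4) to 590.2 ± 34.2 (SD, n = 4), a 2.68-fold drop (log2 fold change -1.42, SE 0.06, adjusted p = 6.84e-12 by limma), and 493 of the 29045 genes had a lower fold change. In 0X the mean was 1273 ± 72.0 (SD, n = 2), a fall by 0.31 on the log2 scale (SE 0.07, adjusted p = 6.24e-03 by limma). The 0X call was lost when either 0X library was left out (-0.25 without replicate 1 and -0.37 without replicate 2). It was also lost without 1X replicate 1 (adjusted p = 0.0210 by limma) or replicate 2 (0.0246), and with no filter on low values (0.0536). Equal library totals (0.0105) and equal totals over nuclear genes (0.0133) lost it as well. NFS1 shares 4.80% of its exon bases with a gene on its strand (ENSG00000272897, -0.28 at 10X) and 1.39% with ROMO1 on the other (-0.74 at 10X).

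LYRM4, without which NFS1 is unstable, was lower in both altered media. It stood at 605 and 642 in 0X, at 787, 773, 750.2 and 868 in 1X, and at 579, 599.7, 553 and 679.7 in 10X. Every 1X library was above every 0X and 10X library, while 0X and 10X overlapped. The fall by 0.40 at 10X (SE 0.07, adjusted p = 2.01e-04 by limma) had a 95% interval of -0.56 to -0.24, outside that of NFS1 (-1.55 to -1.29). At 0X LYRM4 fell by 0.35 (SE 0.09, adjusted p = 9.87e-03 by limma), just inside the threshold, and the call was lost in 5 of 10 alternatives and in 5 of 6 fits with 1 library left out, where the adjusted p reached 0.118. All but the fit without 1X replicate 3 of those 6 lost it.

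ISCU, the scaffold, was not called in either altered medium. Its values were 1753 and 1782 in 0X, 2023, 1968, 1703 and 1879 in 1X, and 1996, 2161, 2175 and 2015 in 10X. The 1X libraries overlapped both of the other media. The log2 difference was -0.10 at 0X (adjusted p = 0.379 by limma) and 0.14 at 10X (95% interval 0.02 to 0.26, adjusted p = 0.0436 by limma). Leaving out 1X replicate 3 gave -0.15 at 0X and 0.09 at 10X, and leaving out 1X replicate 1 gave -0.06 at 0X. With libraries scaled to equal totals ISCU was called higher at 10X (0.25, adjusted p = 1.16e-03 by limma).

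HSCB, which hands the loaded scaffold to its chaperone, rose under excess cysteine. It measured 575 and 627 in 0X, 595, 539.8, 470.0 and 600.2 in 1X, and 706, 724, 759 and 739 in 10X. All 4 of the 10X libraries were above every other library, whereas 0X and 1X overlapped. The mean was 551.2 ± 60.5 (SD, n = 4) in 1X and 731.9 ± 22.4 (SD, n = 4) in 10X, a log2 fold change of 0.41 (SE 0.08, adjusted p = 2.26e-04 by limma). HSCB shares 20.2% of its exon bases with CHEK2 on the opposite strand. CHEK2, a DNA damage kinase, went the other way, from 1443 in 1X to 1076 in 10X (-0.42, adjusted p = 3.42e-06 by limma), and whether the counting used the strand that the library kit marked is not given in the sources used here.

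GLRX5, which accepts the new cluster, fell at 10X. It stood at 2108 and 2213 in 0X, 2536, 2394, 2626 and 2591 in 1X, and 1557, 1353, 1453 and 1502 in 10X, and the 3 media did not overlap. The 10X mean was 1.73-fold below that of 1X (log2 fold change -0.79, SE 0.05, adjusted p = 1.68e-09 by limma). At 0X the difference of -0.23 missed the threshold (adjusted p = 0.0150 by limma), although it was called by DESeq2 on the recovered reads (adjusted p = 6.95e-03). SNHG10, a non-coding RNA sharing 12.6% of GLRX5's exon bases on the opposite strand, also fell at 10X (-0.60, adjusted p = 3.40e-05 by limma).

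ISCA1 and ISCA2 act together, yet their transcripts moved differently. ISCA1 measured 960.1 and 917 in 0X, 1307, 1307, 1305 and 1256 in 1X, and 1082, 1236, 1199 and 1122 in 10X. Its lowest values were in cysteine-free medium and the 3 media did not overlap. ISCA1 was the member with the largest change at 0X, a fall by 0.46 (SE 0.07, adjusted p = 3.47e-04 by limma), a call lost only without 0X replicate 2 (-0.43, adjusted p = 0.0163) among the alternatives run. At 10X its difference of -0.16 missed the threshold (adjusted p = 0.0223 by limma). Equal library totals put ISCA1 at -0.05 there (adjusted p = 0.407 by limma). Its pseudogene ISCA1P1 reached 123 normalized counts, with means of 67.0 in 0X, 113 in 1X and 93.4 in 10X, so ISCA1 is uncertain to the extent that counting split reads between them.

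ISCA2 showed the reverse weighting. Its values were 712 and 623 in 0X, 831, 707, 722 and 812 in 1X, and 412, 456, 458 and 373 in 10X. The 10X libraries were all below the others, while 0X overlapped 1X. The fall at 10X was 1.81-fold (log2 fold change -0.85, SE 0.08, adjusted p = 1.38e-07 by limma). At 0X the difference was -0.20 (adjusted p = 0.146 by limma), or -0.30 without 0X replicate 1 and -0.11 without 0X replicate 2. NPC2, sharing 3.40% of ISCA2's exon bases on the opposite strand, differed by -0.09 at 10X (adjusted p = 0.158 by limma). The ratio of ISCA1 to ISCA2 per kb of exon, which scaling between libraries cannot alter, was 1.31 ± 0.0816 (SD, n = 2) in 0X, 1.58 ± 0.145 (SD, n = 4) in 1X and 2.55 ± 0.171 (SD, n = 4) in 10X. It was higher in 10X than in 1X (2-sided exact permutation p = 0.029, the smallest that 4 against 4 libraries allow). The difference of 0X from 1X had an exact p of 0.133, where 2 against 4 cannot go below 0.067. The ratio is built from the values printed above, so these p-values add no separate support.

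IBA57, their partner in [4Fe-4S] assembly, and NFU1, the carrier, fell at 10X and were not called at 0X. IBA57 stood at 1911 and 1964 in 0X, 1932, 2051, 2482 and 1978 in 1X, and 1604, 1534, 1586 and 1421 in 10X. NFU1 stood at 1139 and 1202 in 0X, 1228, 1195, 1132 and 1163 in 1X, and 919.9, 889.8, 956 and 883 in 10X. For both genes the 10X libraries were below all others and 0X overlapped 1X. The log2 fold change at 10X was -0.45 for IBA57 (SE 0.07, adjusted p = 3.37e-05 by limma) and -0.37 for NFU1 (SE 0.06, adjusted p = 2.07e-05 by limma). At 0X the differences were -0.12 for IBA57 (95% interval -0.31 to 0.08) and -0.01 for NFU1 (95% interval -0.17 to 0.15). Without 1X replicate 3, the library at 2482, the IBA57 difference was -0.04.

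**Figure D2:**
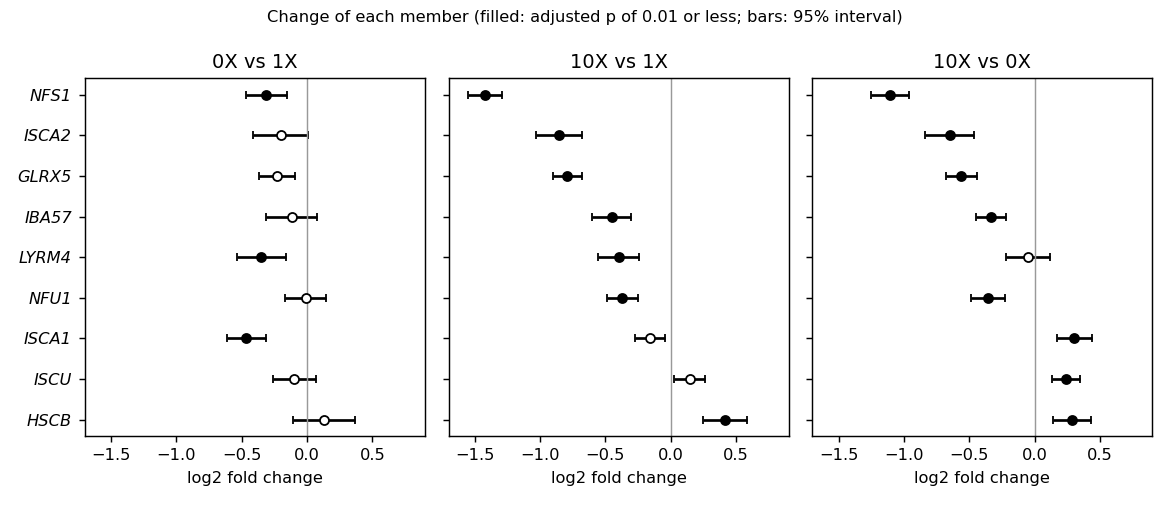
Log2 fold change (x axis) of each member in 0X against 1X, 10X against 1X and 10X against 0X; points are limma estimates, bars their 95% intervals, and filled points passed an adjusted p of 0.01. NFS1 lies at -1.42 in the middle panel, and HSCB is the only filled point to the right of 0 there.

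The comparisons with 1X share the 1X libraries, so 10X was also set directly against 0X. In this comparison 8 of 9 members were called, 3 higher and 5 lower, against 48.0% of all genes called, 24.4% higher and 23.6% lower. With equal library totals 8358 genes were higher and 5575 lower, in place of 7087 and 6867. The median over the members was -0.34, against 0.00 over all genes. NFS1 (-1.11, adjusted p = 1.66e-12), ISCA2 (-0.65, adjusted p = 1.18e-06), GLRX5 (-0.56, adjusted p = 8.33e-09), NFU1 (-0.36, adjusted p = 2.30e-05) and IBA57 (-0.34, adjusted p = 1.51e-05) were lower in 10X by limma. ISCA1 (0.30, adjusted p = 2.52e-04), HSCB (0.28, adjusted p = 1.29e-03) and ISCU (0.24, adjusted p = 3.81e-04) were higher in 10X by the same test. LYRM4 differed by -0.05 (95% interval -0.22 to 0.12). With no filter on low values only NFS1, GLRX5 and NFU1 were called, and the HSCB call was also lost without 0X replicate 1 (0.22, adjusted p = 0.0365), with all 3 groups in 1 fit (adjusted p = 0.0166) and in a replicate block fit (0.25, adjusted p = 0.0152).

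Levels were compared between members as normalized counts per kb of exon. In 1X, GLRX5 was highest at 1062 ± 42.8, followed by NFU1 at 643 ± 22.5, and then by ISCU at 428 ± 31.7, ISCA1 at 398 ± 7.64 and HSCB at 379 ± 41.6 (SD, n = 4 libraries). The last 3 overlapped as neighbours. NFS1 at 262 ± 12.8, ISCA2 at 254 ± 20.7, IBA57 at 206 ± 24.7 and LYRM4 at 201 ± 13.0 formed a lower set in which each overlapped the next. In 0X the order was GLRX5 (905), NFU1 (638), HSCB (413), ISCU (399.6), ISCA1 (289), ISCA2 (221), NFS1 (211), IBA57 (189) and LYRM4 (158), with overlap between HSCB and ISCU and between ISCA2 and NFS1. In 10X GLRX5 (614) was followed by HSCB (503), NFU1 (497) and ISCU (472), which overlapped as neighbours, and then by ISCA1 (357). LYRM4 (153), IBA57 (150.1) and ISCA2 (140.5) overlapped as neighbours above NFS1. NFS1, sixth in 1X, was thus the lowest member per kb in 10X at 98.0 ± 5.68 (SD, n = 4), below ISCA2 without overlap. These orders depend on dividing by all annotated exon bases, for example 6023 for NFS1 and 3025 for ISCA2. Undivided, ISCA2 was the lowest member in 10X, with a mean of 424.9 against 590.2 for NFS1.

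The balance of the desulfurase to its partners was followed as the level per kb of each other member divided by that of NFS1 in the same library. ISCU stood at 1.83 to 1.95 times NFS1 in 0X, 1.54 to 1.73 times in 1X and 4.33 to 5.42 times in 10X. HSCB went from 1.32 to 1.55 times NFS1 in 1X to 4.65 to 5.75 times in 10X, with 1.95 and 1.96 times in 0X. LYRM4 stood at 0.740 and 0.755 in 0X, at 0.736 to 0.798 in 1X and at 1.40 to 1.77 in 10X. LYRM4 therefore went from below to above the level of NFS1 per kb at 10X, and its 0X ratios lay within the range of those in 1X. That order depends on dividing by all annotated exon bases, 6023 for NFS1 and 3950 for LYRM4. Undivided, the means of NFS1 and LYRM4 were 1581 and 794.6 in 1X and 590.2 and 602.9 in 10X. Since NFS1 fell most at 10X, all 8 ratios had to rise there, and they are given as a description with no test. The mean rise from 1X to 10X was 1.48-fold for ISCA2 at the least and 3.57-fold for HSCB at the most.

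**Figure D3:**
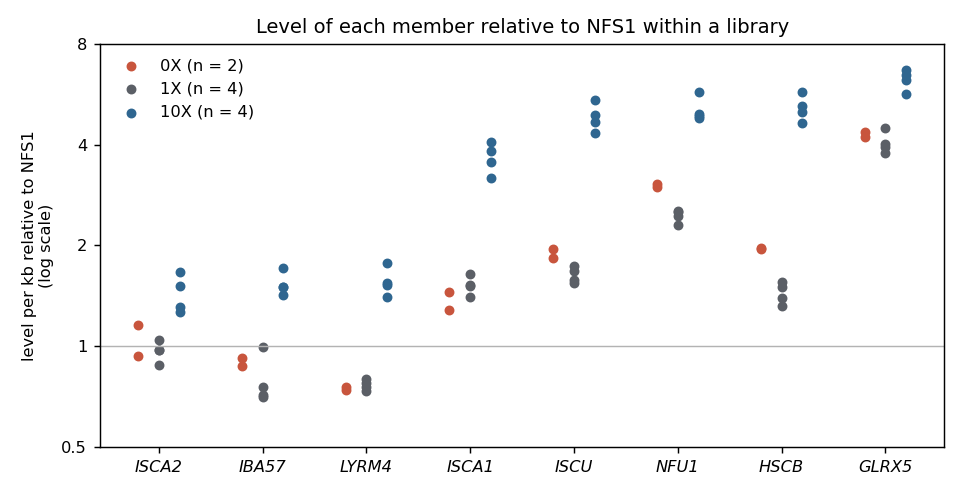
Level per kb of exon of 8 members divided by that of NFS1 in the same library (y axis, log scale) in 0X (n = 2), 1X (n = 4) and 10X (n = 4); each point is a library. The 10X points lie above the 1X points for every gene, from 1.27 to 1.67 for ISCA2, the lowest, up to 5.69 to 6.71 for GLRX5, the highest.

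The genes whose profile over the 10 libraries was most like that of NFS1, by the root mean square difference of log2 values centred on each gene's mean, were sought among 14551 genes. These were ACTR5 (0.0921), a chromatin remodelling subunit, COL5A1 (0.0975), a collagen chain, APRT (0.103), an adenine salvage enzyme, CYB5A (0.104), a cytochrome b5, and EHD3 (0.106), a membrane trafficking protein. NFS1's own spread around its mean was 0.658 on this scale. ACTR5, for example, had means of 554 in 0X, 786 in 1X and 275 in 10X.

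Other genes of iron-sulfur biology were read from 5 lists of 69 genes, of which 68 were tested. Of these, 18 (26.5%) were called at 0X, 3 higher and 15 lower, and 44 (64.7%) at 10X, 8 higher and 36 lower, beside 15.9% and 46.0% of all genes. In the direct comparison of 10X with 0X, 39 were called (57.4%), 14 higher and 25 lower, beside 48.0% of all genes. The shares over all genes include genes at low counts, and no share among genes of like level was worked out. With only genes at 50 or more in 3 libraries tested, 4878 were called at 0X and 12408 at 10X. The lists are therefore not shown to be called more often than other genes of their level. The lists were read in the main fit only, and the number of genes called at 0X depended on single libraries, as given in the closing section.

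Among 15 mitochondrial partners of the assembly line, 3 fell and none rose at 0X (median -0.05), and 7 fell and 2 rose at 10X (median -0.23). At 0X the fallen genes were GRPEL1 (-0.61), the exchange factor of the chaperone HSPA9, NDUFAB1 (-0.45), the acyl carrier protein that binds LYRM4, and FDX1 (-0.39), a ferredoxin. Genes that fell at 10X included BOLA3 (-1.43), which works with GLRX5 and NFU1 in cluster delivery, and GRPEL1 (-0.78). BOLA3 fell from 1088 ± 114.7 to 401 ± 21.4 (SD, n = 4 and 4). The 2 that rose were GRPEL2 (0.70) and FDXR (0.34), the ferredoxin reductase.

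Of 12 genes of the cytosolic assembly machinery, 4 fell and none rose at 0X (median -0.21), and 7 fell and 1 rose at 10X (median -0.36). CIAPIN1, the electron donor that starts cytosolic assembly, fell by 0.67 at 0X and by 0.66 at 10X, from 2838 ± 122.4 in 1X to 1783 ± 36.7 (n = 2) and 1800 ± 22.0 (n = 4). CIAO2A (-0.35) and GLRX3 (-0.31) also fell at 0X. BOLA2 (-0.97) and BOLA2B (-0.87) fell at 10X, but these are near-identical copies between which counting could split reads, and the exon bases of BOLA2 are all shared with BOLA2-SMG1P6 on its strand. The gene that rose at 10X was NDOR1 (0.32), the reductase that gives CIAPIN1 its electrons, whose value is uncertain because it shares 36.0% of its exon bases with another gene on its strand (ENSG00000284976).

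Proteins that receive clusters were read from the next lists. Of 15 mitochondrial iron-sulfur proteins, 9 fell and 1 rose at 10X (median -0.26), led by the complex I subunits NDUFV2 (-0.64) and NDUFV1 (-0.45) and by LIAS (-0.44), the lipoic acid synthase. NDUFV2 shares 28.4% of its exon bases with another gene on its strand (ENSG00000265257), so its value is uncertain. At 0X, 2 fell, SDHB of complex II (-0.41) and UQCRFS1 of complex III (-0.37), and 1 rose, LIAS (0.59). LIAS thus changed in opposite directions, with means of 661 ± 78.2 (n = 2) in 0X, 439.5 ± 30.0 (n = 4) in 1X and 323 ± 18.0 (n = 4) in 10X.

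Of 19 tested cytosolic and nuclear iron-sulfur proteins, 9 fell and 4 rose at 10X (median -0.16), and 4 fell and 2 rose at 0X (median -0.04). The largest falls at 10X were those of the DNA glycosylase NTHL1 (-1.41), ACO1 (-0.92), the cytosolic aconitase that doubles as an iron sensor, and the helicase ERCC2 (-0.57). At 0X the glycosylase MUTYH rose (1.17), from 593 ± 95.3 to 1325 ± 128.0, while NTHL1 (-0.40) and the purine synthesis enzyme PPAT (-0.39) fell. MUTYH shares 31.6% of its exon bases with another annotated gene on its strand, so its value is uncertain. Of 7 genes of tRNA thiolation and molybdenum cofactor synthesis, pathways that draw sulfur from NFS1, 2 fell at 0X and 4 at 10X, with none called higher (medians -0.20 and -0.25). TRMU, which thiolates mitochondrial tRNA, fell by 0.58 and 0.38, CTU2 of cytosolic tRNA thiolation fell by 0.27 and 0.35, and MOCS2 fell by 0.29 at 10X.

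**Figure D4:**
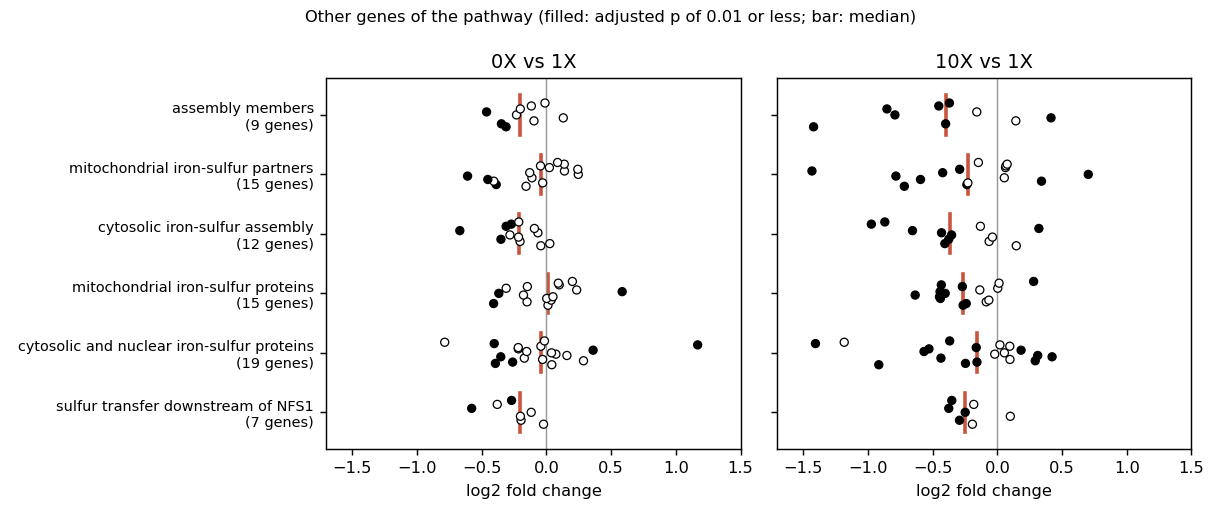
Log2 fold change (x axis) of each tested gene of the 5 lists and of the 9 members, in 0X against 1X and 10X against 1X; filled points passed an adjusted p of 0.01 and the red bar is the list's median. The medians at 10X run from -0.16 to -0.40, left of 0 in all 6 rows.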

How the data were processed

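The authors deposited a gene table of normalized counts, a signal in which each read count was divided by its library's DESeq2 size factor. Per the study's methods, reads were aligned to GRCh38 with STAR 2.7.10b and counted with featureCounts 2.0.4, whereas the submitters' processing notes name HTSeq, R 4.3.3 and DESeq 1.42.0. The methods add that a read falling on more than 1 gene was dropped, which removes reads from shared exons, yet BOLA2, whose exon bases in GENCODE are all shared, averaged 2412 in 1X. The kit marked strand, but its use in counting is not given in the sources used here. The libraries in the table differ in number from the replicates in the study's figure legend. Of 78894 identifiers, 61463 were in GENCODE release 44 and 42165 had a symbol. Whole reads were recovered from the deposited values (100% whole within 0.001).

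Genes with 10 or more in at least 3 libraries (29045) were tested with limma 3.58.1 (trend) in R 4.3.3 on log2(value + 1), 2 groups at a time, 2-sided, so fold changes are on that scale. Calls used an adjusted p of 0.01, the threshold of the study. With replicates of 2 and 4, exact permutation tests cannot go below 0.067 (0X) or 0.029. Replicate libraries of a medium differed by more than sampling noise (chi-square per degree of freedom 3.41 to 14.0), so no pair was treated as 1 library deposited more than once. edgeR 4.0.16 and DESeq2 1.42.0 on recovered reads, other filters, pseudocounts, scalings, a replicate block and leaving out each library were alternatives. Tests were checked on simulated data. Summaries used Python 3.11.15.

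All 9 members were named, with, from each list, up to 3 called genes with the largest fold change and a mean of 100 or more in either group, in 0X against 1X and in 10X against 1X, and the 5 genes most like NFS1, also the member with the widest range. One gene that this rule names is not reported here. Genes called higher in a list (GRPEL2, FDXR, NDOR1) were named after their values were seen. Members, lists and markers were chosen with earlier results of these data known. The sequences are from RefSeq, where all 9 members matched.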

Additional observations from a re-analysis of the deposited data

Results flagged for a closer look

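ISCA1 in complete medium was flagged because 1 library stood apart from the other 3. Its lowest value, 1256 normalized counts, was separated from 1305, 1307 and 1307 by 0.952 of the group's whole range, above Dixon's 95% critical value for 4 samples. The group was tight, with an SD of 24.8 around a mean of 1294. Chance flags about 1 in 20 groups, and 18 groups of 4 libraries were examined, of which 1 was flagged.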

How the results depend on the processing

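In 10X against 1X, 7 of 9 members were called in the fits with 1 library left out and in the alternatives, except 8 with equal totals and 9 at an adjusted p of 0.05; no member changed direction. There, equal totals moved the median over genes averaging at least 100 from -0.021 to 0.085. In 0X against 1X, 4618 genes were called, but 738 with no filter, 7987 at an adjusted p of 0.05 and 978 to 6300 with 1 library left out. The low counts were without 0X replicate 1 (1198), 0X replicate 2 (978), 1X replicate 1 (2968) and 1X replicate 2 (2795). The 3 members called there were 1 with no filter, 1 with equal totals, 1 with equal totals over nuclear genes, and 0 to 3 with 1 library left out (0 without 0X replicate 2). NFU1 turned from -0.011 to 0.013 with equal totals, 0.024 with equal totals over nuclear genes, 0.00028 with edgeR, and ranged from -0.050 to 0.028 with 1 library left out. In 10X against 0X, no filter left 8864 genes and 3 members, and LYRM4 turned to 0.029 with equal totals. The causes were not tested. edgeR on recovered reads called 4941, 13525 and 13834 genes and 2, 7 and 8 members in 0X against 1X, 10X against 1X and 10X against 0X. Replicate numbers did not pair the libraries (correlation of deviations -0.028 to 0.039), and with the replicate block 6532, 13392 and 12393 genes and 3, 7 and 7 members were called, HSCB being the member lost in the last. In fits that left 1 library in 0X, that library was assumed to vary like those of the other group.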
